A study of Mus musculus with 18 samples.

Results

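The Hox genes of mouse chromosomes 6, 11, 15 and 2 were followed in RNA-seq libraries of the embryonic mammary epithelium. Members were chosen by name alone, as every row of the deposited count table whose symbol is Hoxa, Hoxb, Hoxc or Hoxd followed by a number and nothing else. Of 39 such genes in the mouse annotation, 36 had a row among the 24376 rows of the table: 11 of the Hoxa, 9 of the Hoxb, 9 of the Hoxc and 7 of the Hoxd cluster. Hoxb13, Hoxd12 and Hoxd13 had no row and were not analysed here. The epithelium of mammary buds 1 to 3 was dissected from the ventral skin of embryos of mixed C57Bl/6 and NMRI background after enzyme treatment. The series names as its topic what Wnt/β-catenin signalling does in the embryonic mammary gland. Every embryo carried 1 Ctnnb1 allele in which loxP sites surround exon 3. Controls had no Cre, while the embryos called stabilized here also carried Krt14Cre, a transgene that makes the recombinase in cells with an active Krt14 promoter, so that exon 3 is lost in epithelium and the remaining protein resists breakdown. The Krt14 promoter is known to be active across the surface epithelium and not in the bud alone. The 4 groups were control and stabilized at E13.5, with 4 libraries each from embryos of both sexes, and control and stabilized at E16.5, with 5 libraries each from females, so stage cannot be told apart from sex makeup. Each library came from a pool of 2 to 3 littermates of 1 genotype. At least 3 litters were used, but the litter of a library is not given in the sources used here, and p-values measure the spread between pools.

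Hox genes encode transcription factors that bind DNA through a homeodomain and give cells along the head-to-tail axis their position. They lie in 4 clusters, and within each the order along the chromosome follows the order of use: low-numbered genes at the 3′ end act in anterior and earlier, high-numbered genes at the 5′ end in posterior and later tissue. Genes of the same number in different clusters, called paralogs, descend from a common ancestor. In skin, Hoxc8 and Hoxc6 are known for their part in placing or building the mammary gland, and Hoxc13 for its part in the hair shaft and the nail. Hox proteins bind DNA with partners of the Pbx and Meis families, Polycomb complexes keep Hox clusters silent where they are not in use, and Cdx proteins are known activators of Hox genes in the trunk of the embryo.

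The homeobox, the 180 bases that encode the homeodomain, is printed for 3 of the members on which the results turn. Capitals mark the 18 bases for the residues WFQNRR of the helix that reads DNA, and the sequences come from GENCODE M21 transcripts.
Hoxc8: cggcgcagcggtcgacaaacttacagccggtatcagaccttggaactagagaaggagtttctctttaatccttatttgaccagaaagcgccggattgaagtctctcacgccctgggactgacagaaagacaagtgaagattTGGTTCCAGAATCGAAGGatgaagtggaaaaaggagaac
Hoxc13: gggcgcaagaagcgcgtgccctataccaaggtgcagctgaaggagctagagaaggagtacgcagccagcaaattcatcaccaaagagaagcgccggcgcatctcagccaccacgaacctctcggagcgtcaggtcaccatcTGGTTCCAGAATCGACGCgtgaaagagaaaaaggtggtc
Hoxd8: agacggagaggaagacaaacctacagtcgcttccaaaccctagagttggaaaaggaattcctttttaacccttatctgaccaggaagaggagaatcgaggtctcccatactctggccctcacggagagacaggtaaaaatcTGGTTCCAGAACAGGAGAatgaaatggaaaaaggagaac
A homeobox with this motif was found in transcripts of 36 of 36 members. Hoxc8 and Hoxd8, paralogs in different clusters, share 73.3% of these bases and 93.3% of the residues. Hoxc13, a gene of another number in the Hoxc cluster, shares 53.3% of the bases with Hoxc8 and 51.7% with Hoxd8. The longest run that Hoxc8 shares with Hoxd8 or Hoxc13 is 15 bases.

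Library totals ran from 26768810 to 36922108 counts, and values below are CPM, counts scaled to the TMM-adjusted library total (as edgeR gives them). The targeted gene Ctnnb1, which encodes β-catenin, had 2683 ± 333 CPM (SD, n = 4) in E13.5 controls and 3260 ± 347 (n = 4) in stabilized buds, with a log2 fold change of 0.28 ± 0.165 (SE, adjusted p = 0.307). The later stage gave 1248 ± 111 CPM for control and 2278 ± 564 for stabilized epithelium (n = 5 each, log2 fold change 0.87 ± 0.148, adjusted p = 9.02e-05). Counts per gene do not show whether exon 3 is present, so they do not check the labels. The 10 markers of the labelled tissue, epithelium, summed to 2676 CPM or more in every library, and Krt5, Krt14, Epcam and Cdh1 were high throughout. The 18 mesenchyme markers were also present, at 663 to 1497 CPM in sum, and E13.5 control 3 stood highest with 1497 against 663 to 1011 in the other controls of that stage. That library had 53.5 CPM of Twist1 and 23.8 CPM of Prrx1, both transcription factors of mesenchyme, and 4.18% mitochondrial counts against 2.18% to 2.5% in the other 3. E16.5 stabilized 1 had the highest epithelial sum, 7983 CPM against 4513 to 5918 in the other 4.

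In E13.5 controls the 36 genes summed to 280 ± 47 CPM, of which the Hoxc cluster held 57.9% and the Hoxb cluster 37.6%. In E13.5 stabilized buds the total was 192 ± 21.8 CPM, and Hoxb held 59.7% against 30.2% for Hoxc. In E16.5 controls the total was 42.8 ± 5.67 CPM and 89.99% of it was Hoxb. In E16.5 stabilized epithelium it was 214 ± 21.8 CPM, with 45.3% in Hoxc, 34.7% in Hoxb and 18.6% in Hoxd. The Hoxa cluster stayed a minor part everywhere, with 0.440 to 4.96 CPM as group means of its summed level. The summed level of Hoxc went from 160 ± 15.0 CPM in E13.5 controls to 2.94 ± 0.915 in E16.5 controls, and it was 57.5 ± 13.4 and 97.7 ± 22.9 CPM in stabilized epithelium at the same stages. The members behind the Hoxc sum were not the same at both stages: at E16.5 in stabilized epithelium, Hoxc13 alone had 93.8 CPM. In these bulk samples, fewer expressing cells and less RNA per cell cannot be told apart.

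**Figure D1:**
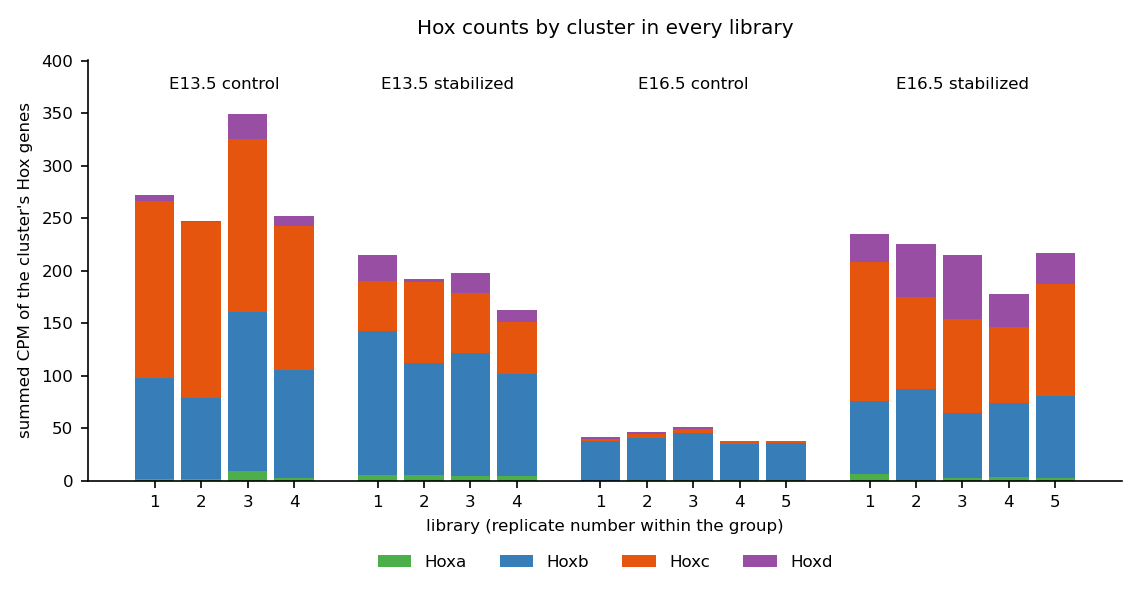
Summed CPM (vertical axis) of the Hox genes of each cluster (colours) in each of the 18 libraries, grouped by stage and genotype. The E16.5 control bars, at 37.5 to 50.8 CPM, are lower than all others and almost wholly Hoxb.

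A mean of 1 CPM or more was found for 19 of 36 members in E13.5 controls, 20 in E13.5 stabilized buds, 4 in E16.5 controls and 15 in E16.5 stabilized epithelium. The number of members with 0 counts in every library was 9, 5, 7 and 0 in the same order. A count of 0 over a whole group allows a level of up to 0.0200 to 0.0252 CPM (3 counts, counting error only). The filter on low counts kept 25 members for testing. The other 11, among them Hoxa9, Hoxa11, Hoxa13, Hoxc10 to Hoxc12, Hoxd10 and Hoxd11, were too low, and none of them had a group mean above 0.596 CPM or more than 44 counts in a library. A member that passes the filter only through the group in which it is high is bound to differ, so the counts of called members below describe the tested members and are not set up as support for a pattern.

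**Figure D2:**
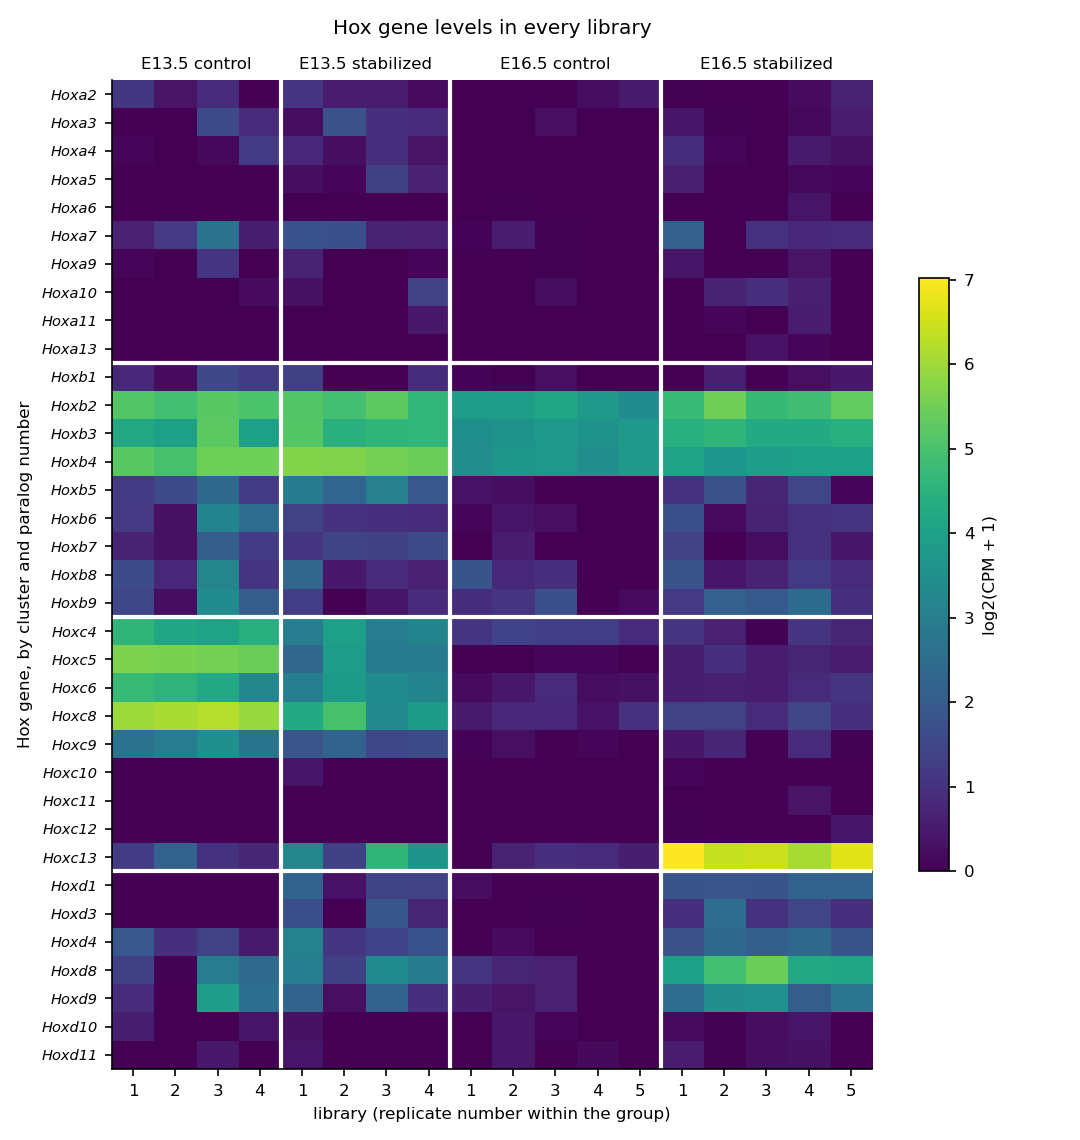
Level of Hox genes, as log2(CPM + 1), in the 18 libraries, with rows by cluster and paralog number and columns by group. Hoxb2, Hoxb3 and Hoxb4 are seen in every library, the block from Hoxc4 to Hoxc9 at E13.5, and Hoxc13 with Hoxd8 and Hoxd9 in E16.5 stabilized epithelium.

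Per kilobase of exon, the scale on which genes can be set side by side, the control bud at E13.5 was led by Hoxc8 with 23.6 ± 2.33 CPM per kilobase. Hoxc5 followed with 15.1 ± 1.01 and Hoxb4 with 14.9 ± 2.38, whose ranges overlapped, and then Hoxb2 with 9.42 ± 0.954. Hoxc6, Hoxc4 and Hoxb3 came next at 4.97 to 7.79 CPM per kilobase, each overlapping the next in range. In E13.5 stabilized buds Hoxb4 led with 18.5 ± 1.64 and Hoxb2 was second with 8.92 ± 1.77, while Hoxc8 had 6.29 ± 3.24 and Hoxc5 2.43 ± 1.33. In E16.5 controls only Hoxb4, Hoxb2 and Hoxb3, at 4.44, 3.84 and 2.72 CPM per kilobase with overlapping neighbours, stood clear of the rest, since Hoxc4, the next, had 0.502. In E16.5 stabilized epithelium Hoxc13 led with 38.1 ± 9.40 CPM per kilobase, followed by Hoxb2 with 9.32 ± 2.56 and Hoxd8 with 8.89 ± 4.25, whose ranges overlapped. Hoxb4 and Hoxb3 came after these, with 5.52 ± 0.522 and 4.77 ± 0.456.

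At E13.5, Hoxc5 and Hoxc8 fell in stabilized buds, and Hoxc13, Hoxd1 and Hoxd3 rose. Of 25 tested members, 3 rose and 2 fell, so 20% were called, against 14.9% of all 17269 genes tested. By direction the background was 9.58% risen and 5.29% fallen. The median log2 fold change of the tested members was -0.07, against 0.01 over all genes. None of the 9 Hoxb and none of the 5 tested Hoxa members was called, though Hoxb3 passed as higher without control 3, alone or with E16.5 stabilized 1 (smallest adjusted p = 0.0115). Hoxa5, under the filter and so not tested, had 0 counts in every control and 6, 3, 44 and 17 counts in the stabilized libraries. That is at least 25.2-fold higher over the groups when the controls are set at 3 counts. Other cells' markers moved with genotype at this stage. The 8 neural and Schwann markers summed to 49.2 to 66.0 CPM in controls and 196 to 266 in stabilized buds, and the neuronal tubulin gene Tubb3 had 8.93, 10.1, 9.03 and 5.21 CPM against 198, 135, 211 and 189. The 18 mesenchyme markers summed to 663 to 1497 CPM in controls and 882 to 1112 in stabilized buds. Of these, 1 rose, Postn, with 53.4 to 162 CPM in controls and 375 to 673 in stabilized buds. Thy1 and Vim fell, Vim with 393 to 553 CPM in controls and 172 to 221 in stabilized buds. In all, 16.7% of the 18 were called, against 14.9% of all genes. The part of these cells in the Hox values was not tested.

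Hoxc5 is a central Hox gene at chr15:102967443-103017429 on the plus strand. It had 50.02, 47.8, 46.0 and 42.6 CPM in the 4 controls at E13.5 and 4.00, 13.47, 6.24 and 6.35 CPM in the 4 stabilized libraries. Each stabilized library was lower than each control, and the log2 fold change was -2.63 ± 0.392 (adjusted p = 8.05e-05). Hoxc8 (chr15:102990607-102994111), the gene with the highest level per kilobase in the control bud, had 62.4, 69.5, 74.7 and 60.3 CPM in controls and 18.6, 30.3, 9.29 and 13.1 CPM in stabilized buds. It too fell with no overlap, with a log2 fold change of -1.90 ± 0.345 (adjusted p = 0.000625). Their neighbours between and beside them had estimates of the same sign that did not pass. Hoxc9 had 5.30, 6.72, 10.4 and 5.50 CPM in controls against 2.63, 3.62, 1.80 and 2.09 in stabilized buds, without overlap, and a log2 fold change of -1.46 ± 0.930 (adjusted p = 0.358). Hoxc6 had 26.2, 22.7, 17.8 and 8.32 CPM against 6.98, 13.1, 9.60 and 7.98, with overlapping groups and a log2 fold change of -0.99 ± 0.447 (adjusted p = 0.159). Hoxc4, the gene at the 3′ end of the cluster, had 19.0 ± 3.40 CPM against 9.02 ± 3.78, also without overlap between the groups (log2 fold change -1.07 ± 0.500, adjusted p = 0.176).

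Hoxc13, at the opposite end of the cluster (chr15:102921103-102928814), went the other way. It had 1.36, 3.66, 1.04 and 0.679 CPM in E13.5 controls and 8.41, 1.49, 22.9 and 11.4 CPM in stabilized buds. The groups overlapped, because stabilized library 2 lay within the control range, and the log2 fold change was 2.71 ± 0.739 (adjusted p = 0.0207). This call rests on few libraries: it was lost without control 1, control 4 or stabilized 3, when only the E13.5 libraries were fitted, and in other settings given in the closing part, with a largest adjusted p of 0.0859. Between Hoxc13 and Hoxc9 lie Hoxc12, Hoxc11 and Hoxc10, which had 0 counts in every E13.5 library except for 10 counts of Hoxc10 in the stabilized group.

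Hoxd1, the most 3′ gene of its cluster (chr2:74762980-74765142), had 0 counts in all 4 E13.5 controls and 3.69, 0.265, 1.70 and 1.54 CPM in stabilized buds. Each stabilized library was above each control, at least 76.3-fold higher over the groups when the controls are set at 3 counts (adjusted p = 0.00115). Hoxd3 had 0 counts in the controls and 2.26, 0, 2.70 and 0.654 CPM in the stabilized libraries, at least 59.0-fold higher over the groups, with stabilized library 2 at 0 like the controls (adjusted p = 0.00357). When only the E13.5 libraries were fitted, both fell under the filter on low counts and 4 members were called, Hoxc4, Hoxc5, Hoxc8 and Hoxc9, all of which fell. Of the calls reported above for this stage, that fit kept Hoxc5 and Hoxc8. Over all genes it called 1651, of which 61.78% rose.

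Hoxd3 and Hoxd4 share much of their sequence with each other and with Gm28230, a read-through transcript over both. Of the 31-base words of Hoxd3, 61.2% also occur in other genes, and for Hoxd4 49.1%, so the split of reads among the 3 rows is uncertain. Gm28230, the only row inside the 4 clusters that is no member, had 89 counts in E13.5 controls, where Hoxd3 had 0. Summed, the 3 rows had 2.15 ± 1.71 CPM in E13.5 controls and 4.82 ± 3.75 in stabilized buds, with overlap, and 0.0398 ± 0.0700 and 6.09 ± 2.62 CPM at E16.5 without overlap. Hoxb3 and Hoxb2 share 52.7% and 26.5% of their words with other genes, chiefly the antisense gene Hoxb3os, and whether the counting used strand is not given in the sources used here. For Hoxc5, Hoxc8, Hoxc13 and Hoxd8 the shares were 4.55%, 0.50%, 0.08% and 0.07%.

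**Figure D3:**
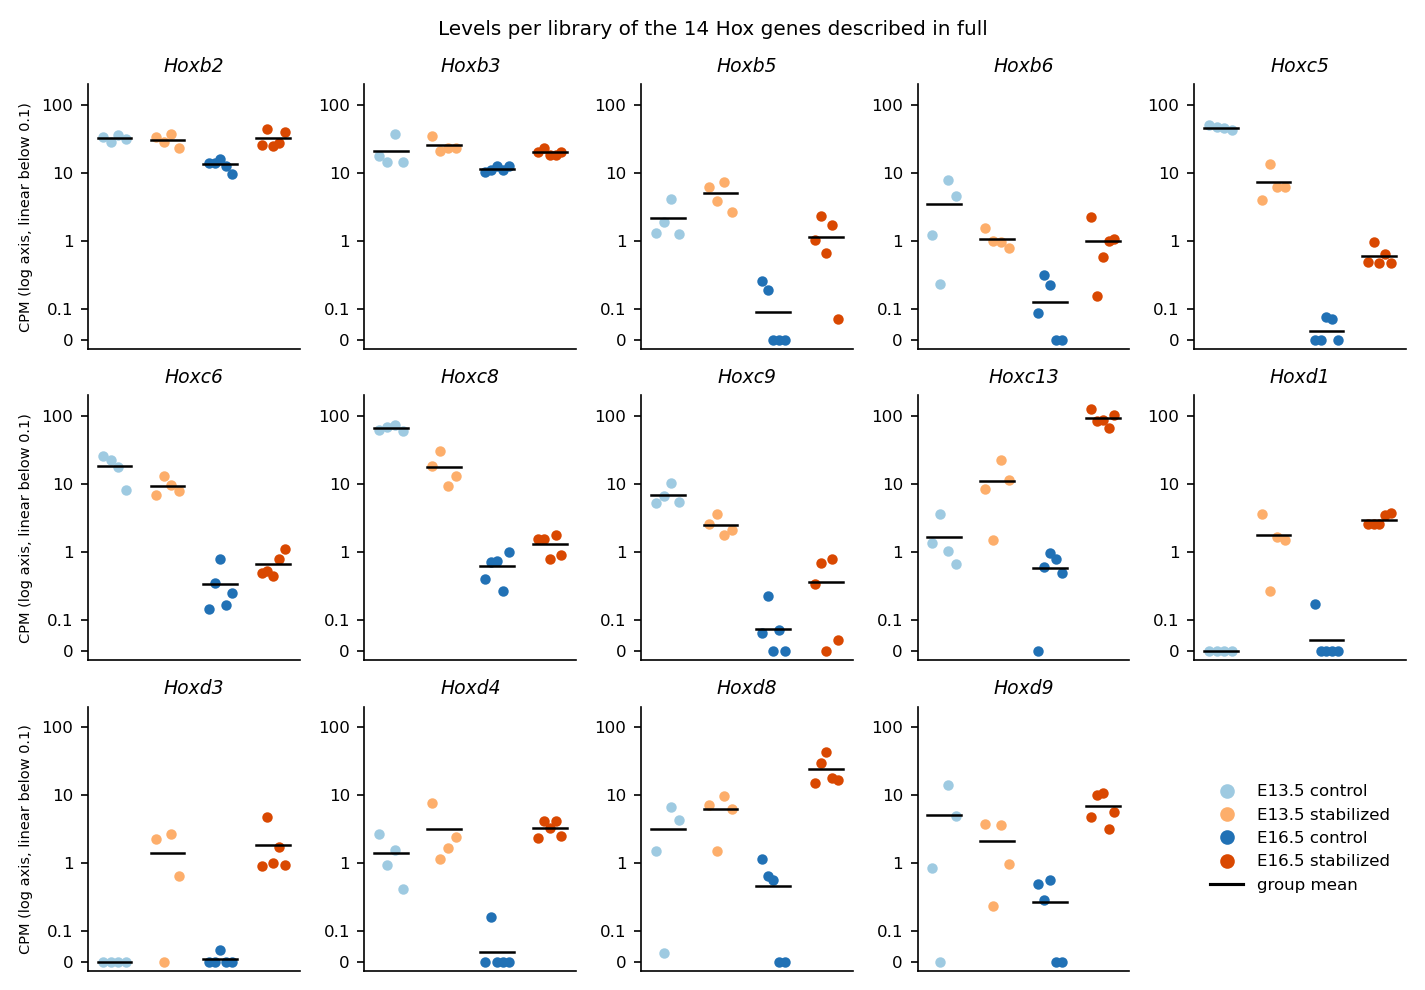
CPM per library (points, log axis that is linear below 0.1) and group mean (line) for 14 members in the 4 groups. Hoxc5 and Hoxc8 step down from control to stabilized at E13.5 and again to E16.5, whereas Hoxc13, Hoxd4 and Hoxd8 at E16.5 are higher in all 5 stabilized libraries than in all 5 controls.

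From E13.5 to E16.5, Hox RNA fell in the control epithelium. Of 25 tested members 16 fell and 0 rose by edgeR's quasi-likelihood test, so 64% were called, against 47.5% of all genes tested, of which 22.6% fell. By DESeq2, 17 fell and 0 rose, while it called 8792 of all genes, 50.14% of them risen. At an unadjusted p under 0.05 in edgeR there were 18 lower and 1 higher, and the share over all genes at that p was not taken. The median log2 fold change of the tested members was -3.86, against -0.03 over all genes, and it was the same with members at 0 placed at their bound. The called members were Hoxa4 and Hoxa7, Hoxb2 to Hoxb7, Hoxc4, Hoxc5, Hoxc6, Hoxc8 and Hoxc9, and Hoxd4, Hoxd8 and Hoxd9. The calls of Hoxb7 and Hoxd8 were kept in 13 and 10 of 25 alternatives, and both were lost without E13.5 control 3 or 4 or E16.5 control 3, 4 or 5, among others, with largest adjusted p-values of 0.128 and 0.153. Markers of other cells also moved with stage in controls. The neural and Schwann markers had a mean sum of 57.3 CPM at E13.5 and 602 at E16.5, with Sox10 at 0.833 to 1.95 and then 480 to 615 CPM, and the 6 immune markers 4.15 and 13.2 CPM. Of the 8 neural and Schwann markers, 1 rose and 2 fell with stage, 37.5% called against 47.5% of all genes. Their part in the fall of the Hox genes was not tested.

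Hoxc5 went from 46.6 ± 3.13 CPM (n = 4) to 0, 0, 0.0752, 0.0670 and 0 CPM in the 5 controls at E16.5, a log2 fold change of -10.55 ± 0.568 (adjusted p = 3.62e-11). Hoxc8 went from 66.7 ± 6.6 to 0.409, 0.711, 0.752, 0.268 and 1.00 CPM (log2 fold change -6.73 ± 0.400, adjusted p = 1.59e-10). Hoxc6 and Hoxc9 fell by 5.78 and 6.53 on the log2 scale, and in all 4 genes every E16.5 control lay below every E13.5 control. Hoxc4 fell by 3.88, from 19.0 ± 3.40 to 1.29 ± 0.348 CPM. Hoxc13 had 1.68 ± 1.35 and 0.579 ± 0.371 CPM with overlap and did not pass (log2 fold change -1.57 ± 0.760, adjusted p = 0.103).

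Of the Hoxb genes, Hoxb2 to Hoxb7 fell. Hoxb4 went from 38.2 ± 6.12 to 11.4 ± 1.33 CPM (log2 fold change -1.74 ± 0.139, adjusted p = 6.14e-09), Hoxb2 from 32.9 ± 3.33 to 13.4 ± 2.45 (-1.30 ± 0.195) and Hoxb3 from 21.1 ± 10.8 to 11.6 ± 1.03 (-0.87 ± 0.233). Hoxb5 had 1.30, 1.93, 4.11 and 1.29 CPM at E13.5 and 0.263, 0.194, 0, 0 and 0 at E16.5, and fell by 4.46 on the log2 scale. Hoxb5 and these 3 genes showed no overlap between the stages. Hoxa4 had 0 counts in all 5 E16.5 controls and 3, 0, 3 and 40 counts in the E13.5 controls. It was at least 17.9-fold lower at E16.5, but at least 3.08-fold without E13.5 control 4, which also loses the call (adjusted p = 0.0632). Whether the fall of the central Hoxc genes and that of the 3′ Hoxb genes differ was not tested, as they are different genes.

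Part of the E13.5 control values moved with mesenchyme markers. Hoxa7, Hoxb6, Hoxb8, Hoxb9 and Hoxd9 were highest in control 3, the library with the highest Twist1 and Prrx1, with 5.12, 7.96, 8.16, 9.40 and 14.3 CPM, and Hoxb6, Hoxb9, Hoxd8 and Hoxd9 were lowest in control 2, the library with the lowest, at 0.238, 0.208, 0.0297 and 0 CPM. Twist1 had 5.41, 0.952, 53.5 and 16.4 CPM in the 4 controls, and Prrx1 2.84, 0, 23.8 and 7.28. The part of these cells in the levels of those Hox genes was not tested. Without control 3 and E16.5 stabilized 1, 12 members fell with stage in controls, all of them among the 16, and the calls of Hoxa7 and Hoxd9 were among those lost. In control 2, with Prrx1 at 0, Hoxc5 and Hoxc8 had 47.8 and 69.5 CPM. In control 3 they had 46.0 and 74.7, the latter the highest Hoxc8 value of the 4. Hoxc9 had 6.72 CPM in control 2 and 10.4 in control 3, its highest of the 4. Hoxc6 had 22.7 and 17.8 CPM in these libraries, and Hoxc4 17.1 and 15.6. Hoxb3, Hoxb5, Hoxb7 and Hoxd8 were also highest in control 3. Of the 18 mesenchyme markers, 5 fell with stage in controls, among them Twist1, Twist2 and Zeb1, and 2 rose. That is 38.9% called, against 47.5% of all genes tested. The summed level had means of 970 and 1051 CPM at the 2 stages.

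**Figure D4:**
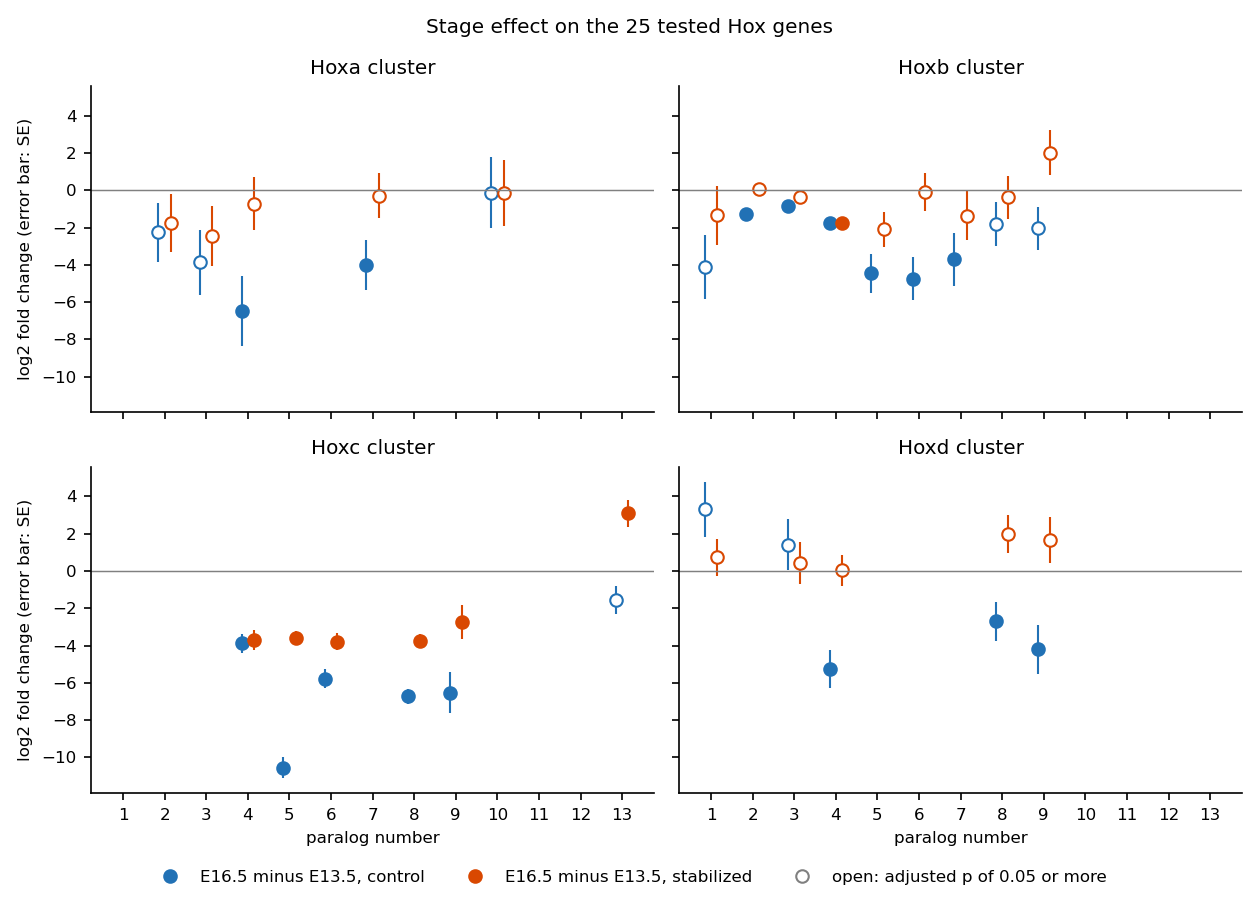
Log2 fold change from E13.5 to E16.5 (points, with SE) by paralog number in each cluster, for control (blue) and stabilized epithelium (orange). Filled points passed an adjusted p of 0.05. In the Hoxc cluster both series lie below 0 from Hoxc4 to Hoxc9, and Hoxc13 is the only filled point above 0.

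At E16.5, Hox RNA was higher in stabilized than in control epithelium in all 4 clusters. Of 25 tested members 14 rose and 0 fell by edgeR's quasi-likelihood test, 56% called against 41.7% of all genes tested, of which 22.2% rose. At an unadjusted p under 0.05 there were 17 higher and 0 lower, and the share over all genes at that p was not taken. DESeq2 called 16 higher and 0 lower, while it called 7789 of all genes, 57.26% of them risen. The median log2 fold change was 2.63, with or without Hoxa4 at its bound, against 0.10 over all genes. By cluster, 2 of 5 tested Hoxa, 4 of 9 Hoxb, 3 of 6 Hoxc and 5 of 5 Hoxd members rose.

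Hoxc13 rose most in level. It had 0, 0.614, 0.977, 0.804 and 0.500 CPM in controls and 129, 83.4, 87.7, 67.1 and 102 CPM in stabilized epithelium. Every stabilized library was far above every control, with a log2 fold change of 7.36 ± 0.818 (adjusted p = 2.73e-06) and a ratio of means of 162. No other member had a higher level per kilobase in any group.

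Each of the 5 tested Hoxd genes rose. Hoxd1 and Hoxd3 passed the filter on low counts only through stabilized libraries, so they were bound to differ. Hoxd3 and Hoxd4 share much of their sequence, as given above, so the 5 calls are not separate views of the cluster. Hoxd8 (chr2:74704615-74707933) had 1.14, 0.647, 0.564, 0 and 0 CPM in controls and 15.1, 29.4, 42.6, 18 and 16.8 CPM in stabilized epithelium (log2 fold change 5.67 ± 1.12, adjusted p = 0.000662). Hoxd9 had 0.496, 0.291, 0.564, 0 and 0 CPM against 4.71, 9.97, 10.7, 3.21 and 5.70 (log2 fold change 4.64 ± 1.31, adjusted p = 0.00867). In both genes the groups did not overlap, and controls 4 and 5 had no count at all. Hoxd4 had 0, 0.162, 0, 0 and 0 CPM against 2.33, 4.13, 3.34, 4.18 and 2.51 (log2 fold change 6.48 ± 1.05, adjusted p = 4.89e-05). Hoxd1 had 0.175, 0, 0, 0 and 0 CPM against 2.56, 2.62, 2.55, 3.53 and 3.73, a narrow range in the stabilized libraries (log2 fold change 6.18 ± 1.2, adjusted p = 0.000506). Hoxd3 had 1 count over all 5 controls, and 0.918, 4.70, 1.02, 1.75 and 0.951 CPM in stabilized epithelium, a ratio of 290 with a counting interval of 51.6 to 11480 (adjusted p = 0.000767). Hoxd10 and Hoxd11, the next genes toward the 5′ end, were under the filter, with 13 and 15 counts in controls and 20 and 26 in stabilized epithelium.

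The promoter of Hoxd8 is shown because it is the only 1 of 20 members with a RefSeq promoter window that holds the word CTTTGAT, the core to which Tcf and Lef, the DNA-binding partners of β-catenin, are known to bind. These are the 250 bases before the start (GRCm38.p6, chr2:74704365-74704614, plus strand), with the word in capitals.
Hoxd8 promoter: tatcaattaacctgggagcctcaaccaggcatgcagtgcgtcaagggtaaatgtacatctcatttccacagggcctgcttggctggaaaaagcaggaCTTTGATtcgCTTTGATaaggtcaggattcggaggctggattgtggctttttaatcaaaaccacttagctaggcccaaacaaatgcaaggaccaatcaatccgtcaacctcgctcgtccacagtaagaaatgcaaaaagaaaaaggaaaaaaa
The word occurs 2 times in these bases. Searched on both strands, it was in 3.73% of 32851 windows of 300 bases, which end 50 bases after the start. The Pbx and Hox word TGATNNAT was in 4 of 20 member windows (Hoxa2, Hoxb1, Hoxb8 and Hoxd11) and in 8.85% of all windows. The Cdx word TTTATG was in 5 of 20 (Hoxa7, Hoxb8, Hoxd3, Hoxd4 and Hoxd11) and in 11.9% of all. The 3 words were searched separately, CTTTGAT ends in the letters with which TGATNNAT begins, and a match describes letters and shows no binding.

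Among the Hoxb genes, Hoxb2, Hoxb3, Hoxb5 and Hoxb6 rose. Hoxb2 had 14, 14.1, 16.3, 12.9 and 9.60 CPM in controls against 25.7, 44.5, 24.9, 27.9 and 39.6 (log2 fold change 1.28 ± 0.187, adjusted p = 1.54e-05). Hoxb3 had 10.3, 11.1, 12.6, 11.3 and 12.7 CPM against 20.2, 23.3, 18.7, 18.5 and 20.7 (log2 fold change 0.81 ± 0.222, adjusted p = 0.00606). Neither gene overlapped between genotypes, while Hoxb3 was not called with the deposited offsets (adjusted p = 0.161). Hoxb4, next to them, had 11.4 ± 1.33 and 14.2 ± 1.34 CPM and did not pass (log2 fold change 0.31 ± 0.131, adjusted p = 0.0631). Hoxb5 had 0.263, 0.194, 0, 0 and 0 CPM against 1.03, 2.33, 0.681, 1.75 and 0.0679 (log2 fold change 3.58 ± 0.998, adjusted p = 0.00678). Hoxb6 had 0.0876, 0.323, 0.226, 0 and 0 CPM against 2.26, 0.158, 0.579, 1.00 and 1.09 (log2 fold change 2.96 ± 1.05, adjusted p = 0.0292). Both overlapped through 1 low stabilized library, and the Hoxb6 call was lost without any 1 of 4 libraries (controls 1, 4 and 5 and stabilized 1), with a largest adjusted p of 0.0864.

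Of the central Hoxc genes, Hoxc5 and Hoxc8 rose at E16.5. Hoxc5 had 0, 0, 0.0752, 0.0670 and 0 CPM in E16.5 controls and 0.497, 0.978, 0.477, 0.643 and 0.475 CPM in stabilized epithelium, without overlap (log2 fold change 4.32 ± 0.578, adjusted p = 5.71e-06). Hoxc8 had 0.628 ± 0.291 CPM in controls and 1.57, 1.58, 0.783, 1.79 and 0.917 CPM in stabilized epithelium, with overlap (log2 fold change 1.08 ± 0.355, adjusted p = 0.0192). The Hoxc8 call was lost when only E16.5 libraries were fitted and without control 1, control 4 or stabilized 4, with a largest adjusted p of 0.120. Hoxc6 had 0.146, 0.356, 0.789, 0.168 and 0.250 CPM against 0.497, 0.536, 0.443, 0.785 and 1.12, and Hoxc9 0.0584, 0.226, 0, 0.0670 and 0 against 0.344, 0.694, 0, 0.785 and 0.0339. Neither passed, with adjusted p-values of 0.0817 and 0.0579. Hoxc4 was the only tested member with a negative estimate, 1.29 ± 0.348 CPM against 0.693 ± 0.446 (log2 fold change -0.90 ± 0.473, adjusted p = 0.139). Of the Hoxa genes, Hoxa4 was at least 15.5-fold higher than in controls, which had 0 counts (adjusted p = 0.0118), and Hoxa7 had 0.11 ± 0.193 CPM against 1.2 ± 1.31 (adjusted p = 0.0407), a call lost without any 1 of 6 libraries (controls 1, 3, 4 and 5 and stabilized 1 and 3) and with a largest adjusted p of 0.147.

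Mesenchyme markers did not all move with these values. Their summed level was 772 to 1231 CPM in E16.5 controls and 788 to 1174 in stabilized epithelium. Twist1 had 3.53, 4.69, 3.91, 1.14 and 0.143 CPM in controls and 0.574, 0.694, 0.341, 2.21 and 0.543 in stabilized epithelium, and Pdgfra, Pdgfrb and Vim fell. Dcn, Postn and Thy1 rose, Dcn from 4.02 ± 3.46 to 301 ± 74.7 CPM. So 3 of the 18 markers rose and 3 fell, 33.3% called against 41.7% of all genes. Prrx1 had 0 to 3.23 CPM in controls and 5.36 to 13.0 CPM in stabilized libraries. Lum had 0.335 to 9.14 and 15.4 to 41.4 CPM, and Col1a2 11.5 to 64.9 and 84.4 to 161. On the other side, Vim had 443 to 653 CPM in controls and 122 to 224 in stabilized libraries. The 8 neural and Schwann markers summed to 532 to 661 CPM in controls, mainly Sox10, and 119 to 175 in stabilized epithelium. Of these 8, 2 rose and 1 fell, 37.5% called against 41.7% of all genes. Sox10 went from 554 ± 59.0 to 29.6 ± 19.9 CPM, and Tubb3 from 5.11 ± 1.76 to 72.1 ± 12.8. The part of other cells in the Hox values was not tested. Without E13.5 control 3 and E16.5 stabilized 1, 12 members rose, all of them among the 14.

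**Figure D5:**
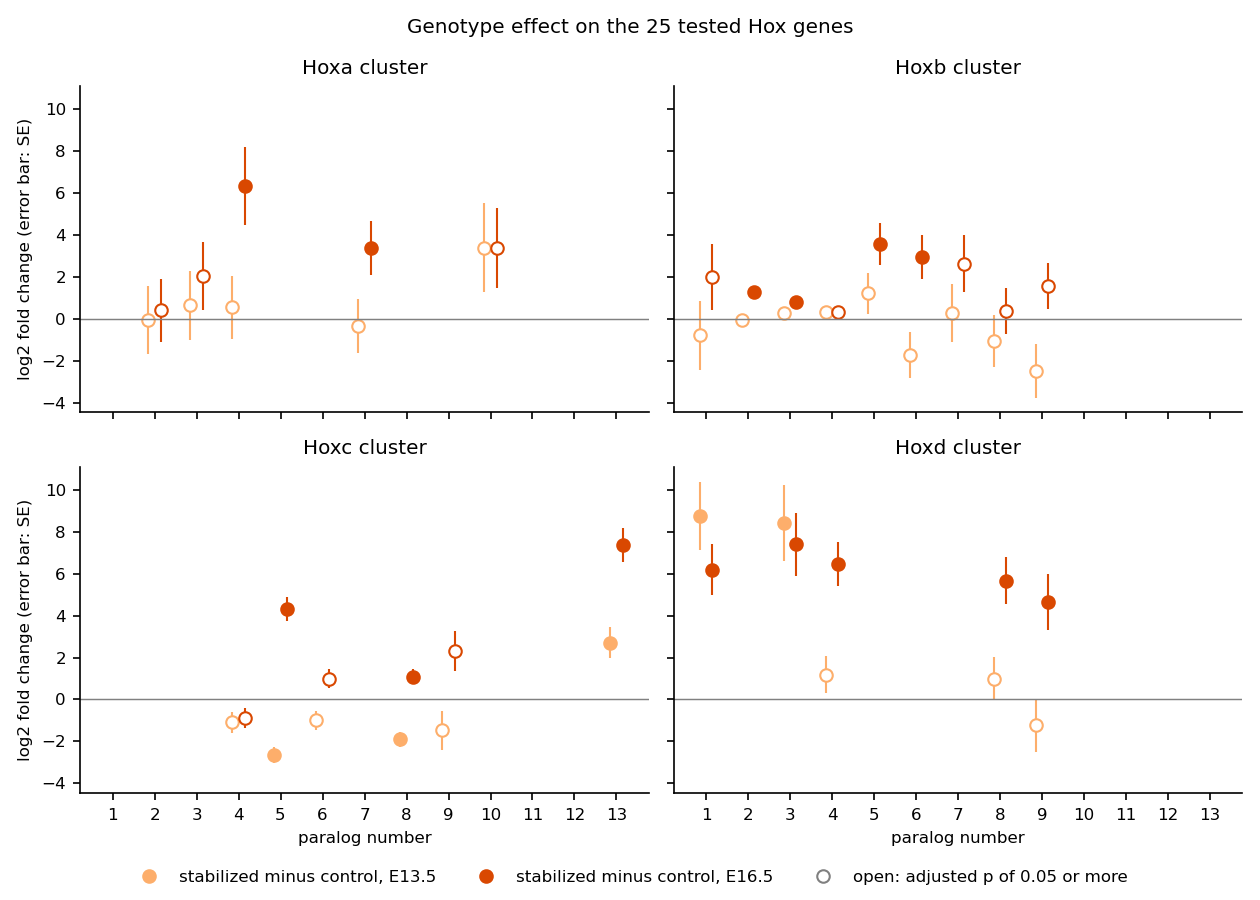
Log2 fold change of stabilized against control (points, with SE) by paralog number in each cluster, at E13.5 (light) and E16.5 (dark). Filled points passed an adjusted p of 0.05. Hoxc5 and Hoxc8 are filled below 0 at E13.5 and above 0 at E16.5.

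The genotype effect differed between the stages for 10 of 25 tested members. The interaction was positive in all 10 and negative in 0, so 40% were called, against 32.2% of all genes tested, of which 15.6% were positive. At an unadjusted p under 0.05 there were 12 positive and 0 negative in edgeR, and the share over all genes at that p was not taken. DESeq2 called 11 positive and 0 negative, while it called 6357 of all genes, 53.67% of them positive. The median log2 difference over the tested members was 2.36, against 0.09 over all genes. Hoxc5 and Hoxc8 passed in both genotype comparisons with opposite signs, and their differences of the log2 fold change between stages were 6.95 ± 0.693 (adjusted p = 4.05e-07) and 2.99 ± 0.493 (adjusted p = 0.000116). Hoxc13 rose at both stages and the difference was 4.65 ± 1.02 (adjusted p = 0.00238). Hoxb2 had a difference of 1.36 ± 0.276 (adjusted p = 0.000808) and Hoxd4 of 5.30 ± 1.31 (adjusted p = 0.00406). Hoxc6 passed with 1.99 ± 0.632 (adjusted p = 0.0207), although neither genotype comparison did, and was lost without E13.5 control 1 (adjusted p = 0.0537). The remaining 4, Hoxb6, Hoxc9, Hoxd8 and Hoxd9, had differences of 3.77 to 5.87 and were no longer called without E13.5 control 3 and E16.5 stabilized 1, which left 6. Hoxb6 and Hoxd9 were also lost without E13.5 control 3 alone, and Hoxc9 was kept in 11 of 24 alternatives. Hoxd1 and Hoxd3, at 0 in E13.5 controls, did not pass.

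In stabilized epithelium, 1 of 25 tested members rose from E13.5 to E16.5 and 6 fell, 28% called against 28.0% of all genes tested. Over all genes 2852 rose and 1990, or 11.5%, fell. The share of members called was thus that of the background. Hoxc13 rose, from 11.1 ± 8.94 to 93.8 ± 23.1 CPM without overlap (log2 fold change 3.08 ± 0.707, adjusted p = 0.00387). Those that fell were Hoxb4 and Hoxc4, Hoxc5, Hoxc6, Hoxc8 and Hoxc9, the last kept in 20 of 25 alternatives and lost without E13.5 stabilized 2, E16.5 stabilized 1 or E16.5 stabilized 5. Hoxb4 fell from 47.5 ± 4.22 to 14.2 ± 1.34 CPM (log2 fold change -1.75 ± 0.139), which is close to its change in controls, and its interaction was 0.00 ± 0.199 (adjusted p = 1). Hoxc8 fell from 17.8 ± 9.17 to 1.33 ± 0.446 CPM (log2 fold change -3.75 ± 0.352) and Hoxc5 from 7.51 ± 4.12 to 0.614 ± 0.215 (-3.60 ± 0.393). Hoxb2, Hoxd4 and Hoxb6 had log2 fold changes of 0.06 ± 0.194, 0.04 ± 0.827 and -0.08 ± 1.01, while in controls each of them fell with stage. The stage effects of these 3 genes differed between genotypes by the same interaction test as above. The comparisons by stage share their libraries with those by genotype and are no independent views of the data.

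Genes that act with or on Hox genes were read from lists, with the same tests and backgrounds. Cdx1 and Cdx2, activators of Hox genes in the trunk, had 0 counts in all E13.5 controls and 15.8 ± 6.73 and 12.8 ± 9.55 CPM in stabilized buds, and both rose (adjusted p = 3.61e-07 and 2.40e-05). At E16.5 they had 1.11 ± 0.603 and 3.13 ± 0.363 CPM in stabilized epithelium, with 1 and 0 counts in controls, and rose too. Both genes passed the filter on low counts only through stabilized libraries. They were thus bound to differ, and their calls are not set up as support for a pattern. Of 11 listed genes of the ParaHox and linked homeobox group, 6 had a row and 4 were tested. Of these 4, 50% were called at E13.5, against 14.9% of all genes, and 100% at E16.5, against 41.7%. At E16.5 a further member, Evx1, a homeobox gene next to the Hoxa cluster, rose to 1.13 ± 0.441 CPM from 1 count in the controls, and Meox1 fell from 8.96 ± 2.50 to 1.29 ± 0.655 CPM.

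Of the 9 TALE cofactors, the Pbx, Meis and Pknox genes, 1 rose and 1 fell at E13.5, 22.2% called against 14.9% of all genes. At E16.5, 3 rose and 2 fell, 55.6% against 41.7%. Meis2 had 186 ± 15.1 CPM in E13.5 controls and 270 ± 43.8 in stabilized buds, then 50.8 ± 6.02 and 451 ± 64.1 at E16.5 (adjusted p = 2.39e-12). Meis1 had 122 ± 15.1 and 264 ± 42.7 CPM at E16.5 and rose, and Pbx3 and Pknox1 fell. From E13.5 to E16.5 in controls 6 of the 9 fell and 2 rose, 88.9% called against 47.5%.

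Of 28 Polycomb genes, 4 rose and 3 fell at E13.5, which is 25% called against 14.9% of all genes. At E16.5, 4 rose and 11 fell, 53.6% against 41.7%. Jarid2, an accessory subunit of Polycomb repressive complex 2, fell at E13.5 from 726 ± 50.2 to 406 ± 35.9 CPM (log2 fold change -0.84 ± 0.123, adjusted p = 6.98e-05). At E16.5 it rose, from 77.8 ± 8.13 to 240 ± 32.6 CPM (log2 fold change 1.63 ± 0.113, adjusted p = 1.02e-09), and the interaction passed as well (2.47 ± 0.167, adjusted p = 3.52e-09). Rbbp7, Rbbp4 and Pcgf5 fell at E16.5 by 0.80, 0.90 and 1.47 on the log2 scale. Of 10 Trithorax genes and H3K27 demethylases, 0 were called at E13.5 in edgeR, against 14.9% of all genes, with 2 at an unadjusted p under 0.05. At E16.5 2 rose, the demethylases Kdm6a and Kdm6b, and 3 fell, Wdr5, Psip1 and Men1, 50% called against 41.7%.

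Of 11 genes listed as targets of Hoxc13 in hair, 10 had a row and were tested. At E13.5 3 rose, 30.0% against 9.58% of all genes, and 7 were not called. The median log2 fold change of the 10 was -0.696. Foxq1 rose from 6.62 ± 1.41 to 23.1 ± 8.82 CPM. Krt75 rose from 1 count to 1.5 ± 1.29 CPM and Krt35 from 0 counts to 0.388 ± 0.624 CPM. In both keratins the lowest stabilized value was 0 CPM. At E16.5 9 rose and 0 fell, 90% called against 41.7%, and the only 1 not called was Foxq1, with 28.2 ± 2.33 and 35.4 ± 9.99 CPM. The keratins of this list passed the filter on low counts only through E16.5 stabilized epithelium, in which they are high. They were thus bound to differ, and the share called is not set up as support for a pattern. The hair keratin Krt81 had 0.0446 ± 0.0844 CPM in controls and 1097 ± 286 in stabilized epithelium (log2 fold change 14.40 ± 0.537, adjusted p = 2.39e-12), and Krt34 0.0323 ± 0.0723 and 765 ± 142 CPM. Foxn1, a transcription factor of the hair shaft, rose from 3.04 ± 1.12 to 90.8 ± 30.8 CPM. Hair keratins have close relatives, and reads may be split among them. None of the 11 listed antisense, intergenic and microRNA transcripts of the Hox clusters was analysed here.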

How the data were processed

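RNA of 18 pools of dissected mammary epithelium was sequenced, 4 per genotype at E13.5 and 5 at E16.5. Per the labels' protocols, the library kit was the Ovation SoLo system. Per the submitters' processing notes, Salmon 0.99.0, Trimmomatic 0.39, FastQC 0.11.8, MultiQC 1.9 and DESeq2 3.15 were used with mm10. Their settings, the annotation release and the strand are unknown (not given in the sources used here). The deposited table holds estimated counts per Ensembl gene, already whole. The second deposited table holds a signal, the authors' counts divided by factors that differ by gene and library, and served only as offsets in 1 alternative. No sample column was left unmapped.

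With edgeR 4.0.16 (R 4.3.3), filterByExpr with a minimum count of 10 kept 17269 genes. TMM factors and a robust quasi-likelihood fit with 1 mean per group over all 18 libraries gave each comparison (common dispersion 0.250). Benjamini-Hochberg adjustment ran over the 17269 genes, and the threshold was 0.05. The fit was tested on simulated data. Fold changes of members at 0 are bounds against 3 counts over the group. Levels per kilobase use the union of exons of GENCODE M21 (GRCm38/mm10), and 24166 of 24376 rows matched a symbol. Shared sequence is the share of 31-base words of a gene's transcripts that occur in other genes.

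The members and lists were chosen with earlier results of these data known. Values in every library are given for members past the threshold in a genotype comparison or the interaction with a mean of at least 1 CPM in a group, at most 14 by smallest adjusted p, and for Hoxc6, Hoxc8 and Hoxc13 in any case. Other genes named are Ctnnb1 and up to 4 called members per list and genotype comparison. Marker lists covered mesenchyme, muscle, neural and Schwann cells, endothelium, immune cells and epithelium. Summed endothelial, immune and muscle markers stayed at 3.14 to 14.0, 2.94 to 15.1 and 1.04 to 29.5 CPM. Alternatives were RLE size factors, DESeq2 1.42.0, no filter, offsets, the libraries of 1 comparison alone, the longest transcript as length, a replicate block, leaving out each library in turn, and, chosen after seeing the data, leaving out E13.5 control 3 and E16.5 stabilized 1 together. Reads of shared or overlapping genes may have been split by the counting, and counts of few reads limit what the lowest members can show. Some values and 1 sequence are not reported here.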

Additional observations from a re-analysis of the deposited data

Results flagged for a closer look

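Among 58 pairs of a Hox gene and a group in which its mean was at least 1 CPM, 6 had a library that stood apart from the others by Dixon's 95% criterion, and chance alone marks about 1 in 20 groups. In E13.5 control 3, Hoxa7 had 5.12 CPM and Hoxb3 37.1 CPM, and this library also had the highest mesenchyme markers of its group. In E16.5 stabilized 1, Hoxa7 had 3.44 CPM, and this library had the highest epithelial marker sum. The other 3 were Hoxb8 with 4.00 CPM in E13.5 stabilized 1, Hoxc4 with 14.6 CPM in E13.5 stabilized 2, and Hoxd3 with 4.70 CPM in E16.5 stabilized 2. The part of other cells in these values was not tested.

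The genotype effect differed between stages, by the interaction term of the edgeR model, for 10 members. The differences (effect at E16.5 minus effect at E13.5, log2) were 6.95 for Hoxc5, 5.87 for Hoxd9, 5.30 for Hoxd4, 4.69 for Hoxd8, 4.67 for Hoxb6, 4.65 for Hoxc13, 3.77 for Hoxc9, 2.99 for Hoxc8, 1.99 for Hoxc6 and 1.36 for Hoxb2.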

How the results depend on the processing

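No alternative turned the direction of a called member. The number of Hox genes called stayed within 1.5 times the reported one in 123 of 124 repeats. The exception was the interaction without E13.5 control 3 and E16.5 stabilized 1, which left 6 of 10, and the cause was not tested. Leaving out 1 library at a time gave 4 to 6 called members at E13.5, 11 to 16 at E16.5, 7 to 12 for the interaction, 12 to 16 for stage in controls and 6 to 7 for stage in stabilized epithelium. For the genotype and interaction calls of the 14 members given in full, 38 repeats of a called result lost the call and 623 did not. Repeats in which a member fell under the filter or had no adjusted p are in neither number. That is the case for Hoxd1 and Hoxd3 at E13.5 when only the E13.5 libraries were fitted. Hoxc13 at E13.5 was called in 19 of 25 alternatives, and lost with the replicate block, with the E13.5 libraries alone, without control 1, control 4 or stabilized 3, and without the pair of libraries named above. For stage in controls, the calls of Hoxb7 and Hoxd8 were kept in 13 and 10 of 25, and that of Hoxc9 in the interaction in 11 of 24. With the longest transcript as length, the same gene led per kilobase in each of the 4 groups. Replicate numbers did not pair the libraries: deviations of same-numbered libraries correlated at -0.099 to 0.172. With a replicate block, 4, 13, 9, 13 and 7 members were called in the 5 comparisons, and 2260, 6756, 5134, 7571 and 4391 of all genes. Hox genes under 1 CPM rest on few counts, which limits their precision.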
